A study of Mus musculus with 4 samples.

Results

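Costimulation and immune checkpoint genes were examined in λ-MYC lymphoma cells. The 10 genes were taken by name: Cd86, Cd80, Cd274, Pdcd1lg2, Icosl, Cd47, Cd200, Pvr, Btla and Tnfrsf14. All 10 were found among the 34866 genes of the table. Cells came from the spleens of 2 sick mice (tumors #1 and #2) that carried a λ-MYC transgene, a Cre knock-in at the gene of activation-induced deaminase (AID) and a Cre-activated Tomato (Tom) knock-in at Rosa26, each knock-in on 1 allele. The transgene holds a translocated human MYC gene under immunoglobulin λ regulatory sequences. Tom stays on in a cell and its descendants after AID has been expressed. From each mouse, B220+ IgM+ Tom+ cells (AID-experienced) and B220+ IgM+ Tom- cells were sorted, which gave 4 RNA-seq libraries. Tom+ and Tom- cells carried the same alleles, no cells without the transgene are analysed here, each tumor was 1 mouse, and the age of these mice was not given in the sources used here. The comparison asked whether lymphoma cells with and without past AID expression differ.

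B cells present antigen to T cells, and the outcome depends on a second set of surface signals. CD80 and CD86 bind CD28, which activates T cells, and CTLA-4, which restrains them. PD-L1 (Cd274) and PD-L2 (Pdcd1lg2) bind the inhibitory receptor PD-1, and ICOS ligand (Icosl) binds ICOS on helper T cells. CD47 tells phagocytes not to engulf the cell through SIRPα, CD200 restrains myeloid cells through CD200R, and PVR (CD155) binds CD226, TIGIT and CD96. BTLA is an inhibitory receptor of B and T cells, and its ligand is HVEM, the product of Tnfrsf14, which is often lost in human germinal center lymphomas.

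The promoters of 3 members are shown: Cd274, with the largest mean difference between the tumors, Cd200, with the largest difference between Tom+ and Tom- cells, and Btla, whose promoter was the member promoter with an E-box. Sequences are from RefSeq on GRCm38.p6 and run from 250 bases before to 50 bases after the annotated start, on the strand of the gene. They lie at chr19:29367188-29367487 on the plus strand (Cd274), chr16:45224087-45224386 on the plus strand (Btla) and chr16:45409004-45409303 on the minus strand (Cd200). Capitals mark a match to the interferon regulatory factor (IRF) motif AANNGAAA in Cd274 (read on the opposite strand) and Cd200, and the E-box CACGTG, the sequence bound by MYC and related factors, in Btla.
Cd274: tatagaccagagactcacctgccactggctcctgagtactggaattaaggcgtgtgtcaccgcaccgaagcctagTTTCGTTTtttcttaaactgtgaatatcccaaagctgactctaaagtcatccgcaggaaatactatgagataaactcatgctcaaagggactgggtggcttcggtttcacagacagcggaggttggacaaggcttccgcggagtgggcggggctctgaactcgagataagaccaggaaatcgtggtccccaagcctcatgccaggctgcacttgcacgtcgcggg
Btla: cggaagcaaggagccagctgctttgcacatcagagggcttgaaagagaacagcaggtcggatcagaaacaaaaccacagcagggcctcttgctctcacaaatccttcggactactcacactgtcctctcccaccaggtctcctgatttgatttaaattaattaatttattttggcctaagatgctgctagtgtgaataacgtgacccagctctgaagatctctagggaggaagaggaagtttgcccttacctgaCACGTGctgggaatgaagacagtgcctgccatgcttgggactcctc
Cd200: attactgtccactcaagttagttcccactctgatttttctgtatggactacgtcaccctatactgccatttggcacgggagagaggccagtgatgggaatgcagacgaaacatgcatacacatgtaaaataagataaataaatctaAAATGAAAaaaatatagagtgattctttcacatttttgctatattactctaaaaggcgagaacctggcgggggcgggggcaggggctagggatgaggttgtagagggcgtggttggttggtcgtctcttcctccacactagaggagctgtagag

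Promoters were held by the RefSeq table for 8 of the 10 members, with 2 close starts for Cd47, and Cd86 and Pvr are named only. On either strand, AANNGAAA was found in 5 of these 9 promoters (Cd80, Cd274, Pdcd1lg2, Cd200 and Tnfrsf14) and in 23.9% of all 32851 promoters. The match of Cd274 began 175 bases before the start and that of Cd200 began 104 bases before it. CACGTG was found in Btla, 4 bases after the start, and in 7.15% of all promoters. The motif GGANTTTCC of NF-kB (1.25% of all promoters) and the motif TTCNNNGAA of STAT factors (8.30%) were in 0 of the 9. The 2 matches of Tnfrsf14 overlap each other, IRF and STAT motifs can share letters, and a match is a description and not a site of binding. The GC content ran from 45% in Cd200 to 74% and 74.3% in Cd47, with a median of 52.7% over all promoters.

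Members differed widely in level. Values are given as TPM, a transcript abundance per length that sums to 1000000 in each library. Cd47 and Btla were the most abundant, with means over the 4 libraries of 45.9 and 37.5 TPM, and together held between 66.8% and 86.9% of the summed TPM of the 10 members. Cd86 followed at 11.4 TPM. Tnfrsf14, Cd274, Cd200, Icosl, Cd80 and Pvr had means between 3.87 and 1.47 TPM, with ranges that overlapped, so their order is not firm. Pdcd1lg2 was the lowest, at 0.121 TPM. In tumor #1, 5 members reached 1 TPM in Tom- and in Tom+ cells, and in tumor #2 the number was 8 in Tom- and 9 in Tom+ cells.

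**Figure D1:**
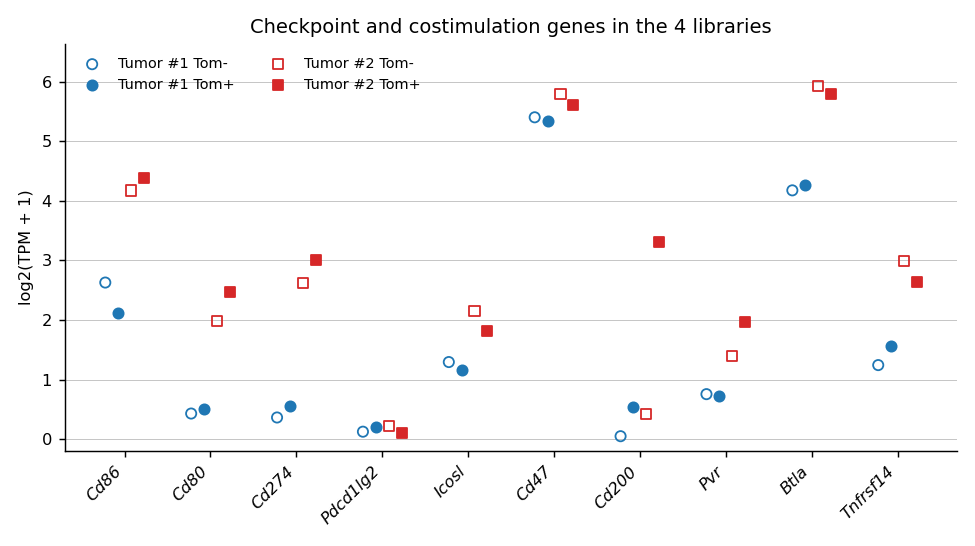
Level of each of the 10 genes, as log2(TPM + 1), with 1 point per library (circles tumor #1, squares tumor #2, open Tom-, filled Tom+). Cd47 and Btla are highest in every library, and Cd86, Cd80, Cd274, Btla and Tnfrsf14 are higher in both libraries of tumor #2 than in both of tumor #1.

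The libraries had the markers of B cells. The summed TPM of 10 B cell markers was 1229 (Tom-) and 1144 (Tom+) in tumor #1, against 3299 and 2607 in tumor #2, and Fcer2a was the marker under 1 TPM in all 4 libraries. Markers of other cells were low. Their sums were between 1.66 and 8.43 TPM for 12 T cell genes, between 14.3 and 28.6 for 12 macrophage and monocyte genes, between 13.3 and 31.8 for 9 dendritic cell genes, between 0.614 and 7.07 for 7 neutrophil genes and between 0.193 and 1.11 for 6 NK cell genes. Trbc1, Trbc2, C1qa, C1qb, Cd14, Fcgr1, Itgax, Clec9a, Ncr1 and Ly6g were listed at 0 in all 4 libraries. Other markers of these lists were above 0. In tumor #2, Cd3d was at 7.77 (Tom-) and 2.09 TPM (Tom+), and Cd8b1 was at 2.02 TPM in Tom+ cells only. S100a8 was at 3.003 TPM and S100a9 at 2.41 TPM in Tom- cells of tumor #2, and both were at 0 in its Tom+ cells. Cd68 ran from 1.92 to 6.41 TPM over the 4 libraries. Bst2 reached 29.3 TPM and Ly6c2 reached 21.1 TPM, both in Tom+ cells of tumor #2. The sum of 6 erythroid and platelet genes was 18.8 and 16.1 TPM in tumor #1, nearly all from Hbb-bs, and 0.185 and 0.871 TPM in tumor #2. TPM keeps no count of reads, so depth is unknown and the counting error cannot be estimated. In bulk samples, fewer cells of a type and less RNA per cell cannot be told apart.

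Between Tom+ and Tom- cells of the same tumor, no tested member passed the test, and Cd200, the member with the largest difference, was too low to be tested. Fold differences are on the log2(TPM + 1) scale, which understates those of low genes. They were tested with limma over the 11339 genes with at least 1 TPM in at least 2 libraries, with the tumor as a block. Of the members, 8 were tested, and Cd200 and Pdcd1lg2 were not. An adjusted p-value below 0.05 was reached by 0% of all tested genes and by 0 of the 8 members, and an unadjusted p-value below 0.05 by 2.04% (higher in Tom+) and 2.64% (lower in Tom+) of all tested genes and by 0 of the 8 members. The smallest unadjusted p-value of a member by limma was 0.289. An exact permutation test within 2 pairs cannot go below 0.5. The study did report differentially expressed genes between these populations at an adjusted p-value below 0.05, with edgeR on paired samples. The limma fit has 1 residual degree of freedom and can miss differences, so its 0 genes do not show that the populations are alike. Over the 8 members the median log2 difference was -0.017, and over all tested genes it was -0.033.

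Of the 10 members, 3 were higher in Tom+ cells of both tumors (Cd80, Cd274 and Cd200), 2 were lower in both (Icosl and Cd47), and 5 went in opposite directions. Among all tested genes, 21.6% were higher and 29.5% were lower in both tumors, and among the 8 tested members it was 2 in each direction. These shares are near each other and say nothing particular about the members.

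**Figure D2:**
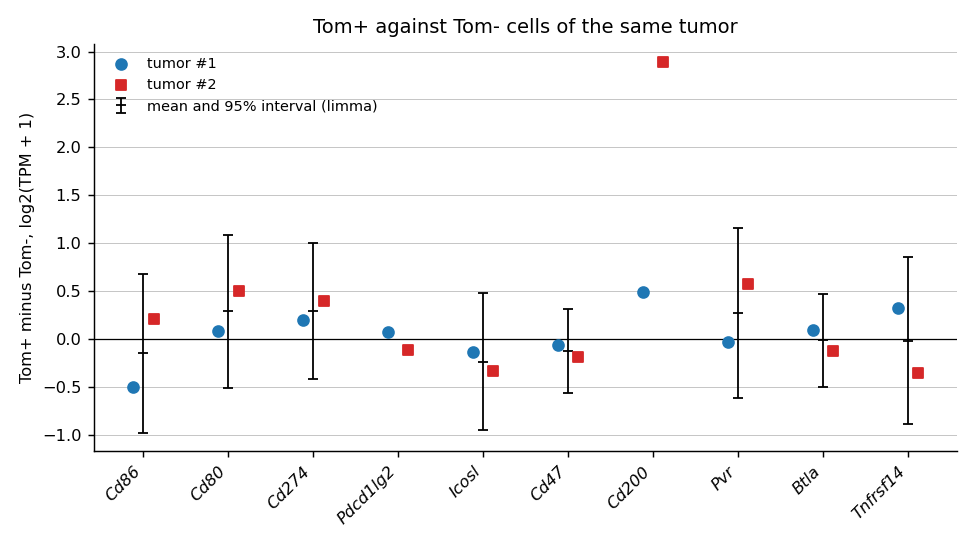
Difference between Tom+ and Tom- cells of the same tumor on the log2(TPM + 1) scale for each gene, with tumor #1 as circles, tumor #2 as squares, and the mean with limma's 95% interval for the 8 tested genes. Every interval includes 0, and the widest difference is that of Cd200 in tumor #2, at 2.89.

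Cd86, the CD28 and CTLA-4 ligand that resting B cells already carry, was at 5.19 (Tom-) and 3.36 TPM (Tom+) in tumor #1, against 17.1 (Tom-) and 19.8 TPM (Tom+) in tumor #2. It was lower in Tom+ cells of the first tumor (log2 difference -0.50) and higher in those of the second (0.20), a mean of -0.15 (SE 0.27, 95% interval -0.98 to 0.68, adjusted p = 0.960). Cd80, the other ligand of both receptors, which B cells gain on activation, was at 0.347 (Tom-) and 0.421 TPM (Tom+) in tumor #1, against 2.94 (Tom-) and 4.56 TPM (Tom+) in tumor #2. Its mean log2 difference was 0.29 (SE 0.26, 95% interval -0.51 to 1.08, adjusted p = 0.936). For both genes Tom+ and Tom- cells overlapped, since the tumors differed more than the sorted populations. The ratio of Cd86 to Cd80, which does not depend on the scaling of a library, was 15 (Tom-) and 8.0 (Tom+) in tumor #1, against 5.80 and 4.34 in tumor #2, so it was lower in Tom+ cells of both, with Cd80 under 0.5 TPM in tumor #1.

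Cd274 (ENSMUSG00000016496), which encodes PD-L1, was at 0.286 (Tom-) and 0.471 TPM (Tom+) in tumor #1, against 5.14 (Tom-) and 7.07 TPM (Tom+) in tumor #2. The log2 difference was 0.19 in the first tumor and 0.39 in the second, with a mean of 0.29 (SE 0.23, 95% interval -0.42 to 1.01, adjusted p = 0.936). Tom+ libraries were above the Tom- library of their own tumor, but the groups overlapped. Pdcd1lg2, which encodes PD-L2 and lies 22.8 kb from Cd274, was at 0.0901 (Tom-) and 0.146 TPM (Tom+) in tumor #1, against 0.170 (Tom-) and 0.0791 TPM (Tom+) in tumor #2, below 0.2 TPM in each library. At this level no difference can be read. Within a library, the TPM of Cd274 was 3.17 and 3.23 times that of Pdcd1lg2 in tumor #1 and 30.2 and 89.4 times in tumor #2, and the small denominator makes these ratios rough.

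Icosl was at 1.45 (Tom-) and 1.23 TPM (Tom+) in tumor #1, against 3.43 (Tom-) and 2.50 TPM (Tom+) in tumor #2, a mean log2 difference of -0.24 (SE 0.23, 95% interval -0.95 to 0.48, adjusted p = 0.936). Cd47 (chromosome 16, 49800533 to 49915010), the most even member, was at 41.4 (Tom-) and 39.6 TPM (Tom+) in tumor #1, against 54.8 (Tom-) and 47.8 TPM (Tom+) in tumor #2. Its mean log2 difference was -0.13 (SE 0.14, 95% interval -0.57 to 0.31, adjusted p = 0.941). Both genes were lower in Tom+ cells of each tumor, with 95% intervals that include 0.

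Cd200 (ENSMUSG00000022661, chromosome 16, 45382135 to 45409053 on the minus strand), whose product restrains myeloid cells, was at 0.0343 TPM in Tom- cells and 0.454 TPM in Tom+ cells of tumor #1. In tumor #2 it was at 0.345 TPM in Tom- cells and 8.94 TPM in Tom+ cells. Its Tom+ libraries both lay above both Tom- libraries, which held for 1 of the 10 members. Among the 19595 genes above 0 in at least 1 library this held for 6.97%, a share near that of the members. The ratio of Tom+ to Tom- TPM was 13.2 in tumor #1 and 25.9 in tumor #2, but the 3 lower values are under 0.5 TPM, where the number of reads behind them is unknown. On the log2(TPM + 1) scale the difference was 0.49 and 2.89, a mean of 1.69 ± 1.69 (SD, n = 2 tumors). Of the 19595 genes, 180 (0.919%) had a mean at least as large. Cd200 was picked as the member with the largest difference and its mean rests mostly on 1 library, so this rank is no test. With no filter on low genes, limma gave Cd200 an adjusted p-value of 0.929. Jchain, a marker of plasma cells, was highest in the same library and was at 0.330 (Tom-) and 1.72 TPM (Tom+) in tumor #1, against 1.24 (Tom-) and 209 TPM (Tom+) in tumor #2. The summed TPM of 8 plasma cell genes was 102 and 100.5 in tumor #1 and 76.2 and 295 in tumor #2, and Jchain held 209 of the 295 TPM. Sdc1 was at 1.95 (Tom-) and 1.78 TPM (Tom+) in tumor #1, against 0 and 0.428 TPM in tumor #2, Prdm1 was at 0.108 and 0.0180 TPM, against 0.105 and 0.570 TPM, and Tnfrsf17 was at 0.778 and 0.360 TPM, against 0 and 0.390 TPM. These 3 genes, which mark plasma cells, were low in every library. In Tom+ cells they had higher values within tumor #2 and lower values within tumor #1. Of the rest of the list, Xbp1 in that tumor had 18.7 TPM (Tom-) and 21.2 TPM (Tom+), Derl3 had 2.80 and 2.93 TPM, Irf4 had 14.6 and 29.4 TPM and Slamf7 had 38.7 and 31.8 TPM. Whether plasma cells had a part in the Cd200 values was not tested.

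Pvr, the ligand of CD226 and TIGIT, was at 0.688 (Tom-) and 0.649 TPM (Tom+) in tumor #1, against 1.63 (Tom-) and 2.91 TPM (Tom+) in tumor #2. Its mean log2 difference of 0.27 (SE 0.29, 95% interval -0.62 to 1.15, adjusted p = 0.940) came from tumor #2 (0.57), since tumor #1 was nearly level (-0.034).

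Btla (ENSMUSG00000052013, chromosome 16, 45224315 to 45257670) was at 17.1 (Tom-) and 18.3 TPM (Tom+) in tumor #1, against 59.8 (Tom-) and 54.8 TPM (Tom+) in tumor #2. The mean log2 difference was -0.016 (SE 0.16, 95% interval -0.50 to 0.47, adjusted p = 0.997). Tnfrsf14, its ligand, was at 1.37 (Tom-) and 1.95 TPM (Tom+) in tumor #1, against 6.94 (Tom-) and 5.22 TPM (Tom+) in tumor #2, a mean of -0.017 (SE 0.29, 95% interval -0.89 to 0.86, adjusted p = 0.997). Both genes of this receptor and ligand pair were above the Tom- library in Tom+ cells of tumor #1 and below it in tumor #2. The sign of both means is not firm: that of Btla turned with quantile normalization and with immunoglobulin genes left out, and that of Tnfrsf14 with smaller pseudocounts and with immunoglobulin or noncoding genes left out. The level of Btla was between 8.61 and 12.5 times that of Tnfrsf14 in the 4 libraries.

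The larger differences lay between the tumors. In both libraries of tumor #2, 8 of the 10 members were above both libraries of tumor #1, the exceptions being Pdcd1lg2 and Cd200, and among all tested genes this held for 44.8%. A difference of at least 2-fold on the log2(TPM + 1) scale in Tom- and in Tom+ cells was found for 5 members, Cd86, Cd80, Cd274, Btla and Tnfrsf14, each higher in tumor #2. Of all tested genes 11.8% were past this limit with tumor #2 higher and 3.1% with tumor #2 lower. Cd80, Cd274 and Pvr passed the filter on low values through tumor #2 only, so that their difference is in part fixed by the filter. With 1 mouse per tumor, the difference has no replicate and no test.

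Cd274 had the largest difference between the tumors in the mean of the 2 populations, 2.25 in Tom- and 2.46 in Tom+ cells on the log2(TPM + 1) scale, and as plain TPM it was 18 and 15 times higher in tumor #2. Cd80 was 8.49 and 10.8 times higher, Cd86 3.29 and 5.89 times, Tnfrsf14 5.08 and 2.67 times, and Btla 3.5 and 3.0 times. Cd200 was 10.1 and 19.7 times higher, from values under 0.5 TPM in tumor #1, and Pvr 2.38 and 4.48 times. Icosl was 2.36 and 2.04 times higher. Cd47 stood at 1.32 and 1.21 times the level of tumor #1. The median log2 difference between the tumors over all tested genes was 0.23 in Tom- and 0.19 in Tom+ cells, and it was -0.086 and -0.096 with trimmed-mean scaling of the libraries. With that scaling Cd47 was level (0.040 and -0.052), and the count of members past 2-fold was 4, without Tnfrsf14 (1.48 and 0.83).

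**Figure D3:**
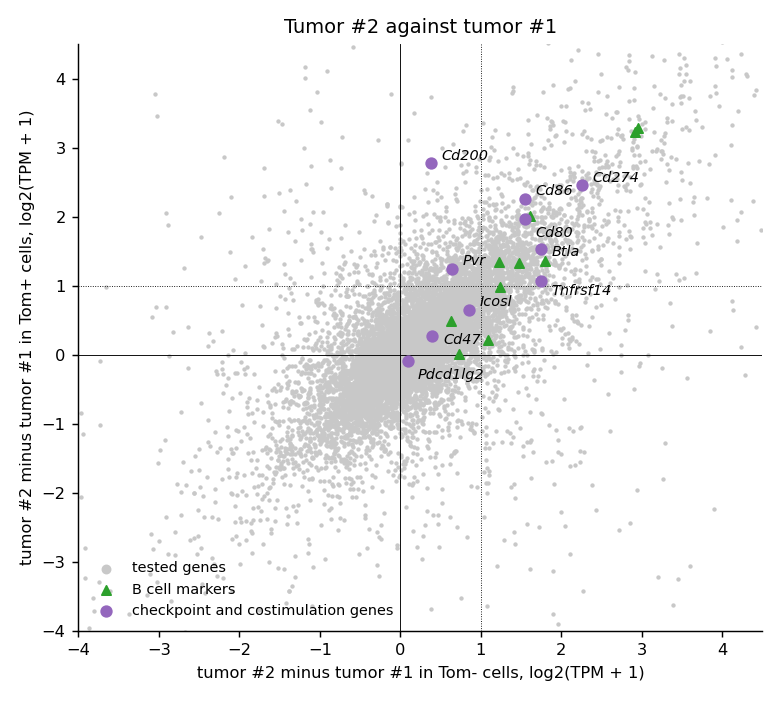
Difference between tumor #2 and tumor #1 on the log2(TPM + 1) scale, in Tom- cells (horizontal axis) and in Tom+ cells (vertical axis), for the 11339 tested genes (grey), 10 B cell markers (triangles) and the 10 checkpoint and costimulation genes (purple, named). Dotted lines mark a 2-fold difference. Cd274, Cd86, Cd80, Btla and Tnfrsf14 are past it on both axes. Cd47 lies at 0.40 and 0.27, Pdcd1lg2 lies near 0, and 192 genes fall outside the plotted range.

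B cell markers differed in the same direction. Over the 10 markers the median log2 difference between tumors was 1.35 in Tom- and 1.34 in Tom+ cells, and 6 of the 9 tested were past 2-fold with tumor #2 higher. The part of a common shift in B cell genes in these values was not tested.

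Apart from Btla, itself a receptor and among the highest members, the receptors of these ligands were low in these sorted B220+ IgM+ cells. Such libraries cannot show whether T cells or myeloid cells with these receptors were present in the tumors. Of 13 receptors and partner ligands, 7 were listed at 0 in all 4 libraries: Ctla4, Icos, Pdcd1, Cd200r1, Cd226, Cd96 and Tnfsf14. Cd28 reached at most 0.135 TPM, Cd160 0.251 TPM, Tigit 0.783 TPM and Sirpa 1.28 TPM. The 2 tested genes were Lta, whose product can bind HVEM, and Ltb, its partner in the membrane-bound lymphotoxin complex. Ltb was at 1.25 (Tom-) and 0.724 TPM (Tom+) in tumor #1, against 20.2 (Tom-) and 13.9 TPM (Tom+) in tumor #2 (mean log2 difference -0.45, SE 0.21, adjusted p = 0.936). Lta was at 0.777 (Tom-) and 0.359 TPM (Tom+) in tumor #1, against 2.02 (Tom-) and 1.65 TPM (Tom+) in tumor #2, also with a lower value in Tom+ cells of both tumors.

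**Figure D4:**
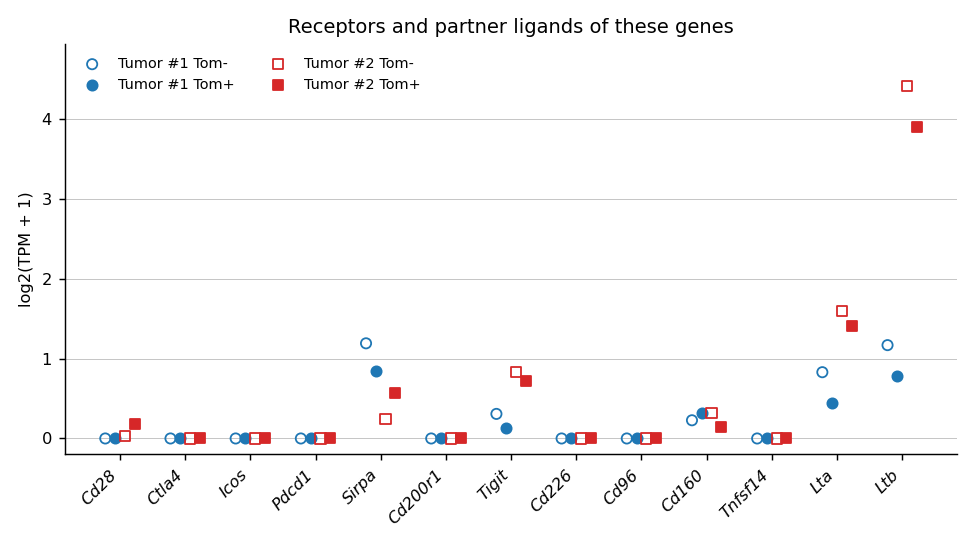
Level of 13 receptors and partner ligands of these genes, as log2(TPM + 1), with 1 point per library (circles tumor #1, squares tumor #2, open Tom-, filled Tom+). In these sorted B220+ IgM+ cells, most receptors of T cells and myeloid cells lie at or near 0. Tigit reaches 0.783 TPM and Sirpa 1.28 TPM, and Ltb in tumor #2 is the highest, at 20.2 and 13.9 TPM.

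The list of 14 other ligands held genes of the B7, butyrophilin, nectin and galectin groups, and Ceacam1, Fgl1 and Cd24a. Of these, 13 were in the table and 4 were tested: Lgals3, Lgals9, Ceacam1 and Cd24a. Across the tumors, 2 had higher and 1 had lower values in each Tom+ library than in its Tom- partner (21.6% and 29.5% of all tested genes), and 0 passed the adjusted test. Lgals3, which encodes galectin-3, a ligand of several T cell glycoproteins, was at 1.53 (Tom-) and 3.99 TPM (Tom+) in tumor #1, against 42.4 (Tom-) and 118 TPM (Tom+) in tumor #2 (mean log2 difference 1.22, SE 0.21, unadjusted p = 0.00889 and adjusted p = 0.936 by limma). Lgals9 was at 54.6 (Tom-) and 57.1 TPM (Tom+) in tumor #1, against 114 (Tom-) and 146 TPM (Tom+) in tumor #2 (0.21, SE 0.15). Lgals3 was the member of this list with an unadjusted p-value below 0.05.

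Of 16 genes of TNF superfamily and adhesion costimulation, 10 were tested, and 9 of these were lower in Tom+ cells of both tumors, where 29.5% of all tested genes were. Cd52, a surface glycoprotein of lymphocytes, was at 53.2 (Tom-) and 32.3 TPM (Tom+) in tumor #1, against 607 (Tom-) and 447 TPM (Tom+) in tumor #2 (-0.57, SE 0.14, unadjusted p = 0.0243 and adjusted p = 0.936 by limma). Slamf6 was at 70.5 (Tom-) and 54.5 TPM (Tom+) in tumor #1, against 104 (Tom-) and 72.8 TPM (Tom+) in tumor #2 (-0.44, SE 0.14, unadjusted p = 0.0446 and adjusted p = 0.936 by limma). Cd40, through which helper T cells activate B cells, was at 3.69 (Tom-) and 2.30 TPM (Tom+) in tumor #1, against 16.3 (Tom-) and 12.1 TPM (Tom+) in tumor #2 (-0.45, SE 0.20, adjusted p = 0.936). The B cell markers were alike, with 8 of 9 tested lower in each Tom+ library than in its Tom- partner, and a median log2 difference of -0.25. Ms4a1, which encodes CD20, was the B cell marker with an unadjusted p-value below 0.05 (-0.49, unadjusted p = 0.0475 and adjusted p = 0.936 by limma), and 0 members of either list passed the adjusted test.

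Regulators of PD-L1 and CD47 had 17 tested genes of 20, of which 2 had higher and 8 had lower values in each Tom+ library than in its Tom- partner (21.6% and 29.5% of all tested genes), with 0 at an unadjusted p-value below 0.05. The largest differences were those of Jak1 (-0.49, SE 0.17) and Cdk5 (-0.45, SE 0.28), both with an adjusted p-value of 0.936. Between the tumors, Irf1, an interferon-induced activator of Cd274, was at 5.0 (Tom-) and 4.78 TPM (Tom+) in tumor #1, against 16.6 (Tom-) and 18.1 TPM (Tom+) in tumor #2. Irf1 and Ifngr1 were among the regulators past 2-fold in both populations, each higher in tumor #2, Ifngr1 by only 1.06 and 1.07 on the log2(TPM + 1) scale. Cmtm6, which keeps PD-L1 protein at the surface, was at 9.34 (Tom-) and 8.73 TPM (Tom+) in tumor #1, against 10.2 (Tom-) and 7.71 TPM (Tom+) in tumor #2. The mouse gene Myc ran from 38.1 to 45.6 TPM over the 4 libraries. Reads were quantified on the mouse transcriptome and the transgene is human MYC. These values are therefore not the level of the transgene, and the part of its reads in them is unknown.

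Genes of B cell activation, which accompany CD80 and CD86 on stimulated B cells, had 10 tested members of 17, with 2 higher and 2 lower in each Tom+ library than in its Tom- partner (21.6% and 29.5% of all tested genes) and 0 at an unadjusted p-value below 0.05. Nr4a1 was at 0.424 (Tom-) and 5.12 TPM (Tom+) in tumor #1, against 2.66 (Tom-) and 1.78 TPM (Tom+) in tumor #2 (0.86, SE 0.73), and Irf4 at 17.2 (Tom-) and 19.5 TPM (Tom+) in tumor #1, against 14.6 (Tom-) and 29.4 TPM (Tom+) in tumor #2 (0.57, SE 0.27). Nr4a1 was higher in Tom+ cells of tumor #1 only, and Irf4 in both. Between the tumors, 3 of the 10 tested genes were past 2-fold in both populations, each higher in tumor #2. These were Nfkbia, an NF-kB target and inhibitor, at 5.73 (Tom-) and 7.20 TPM (Tom+) in tumor #1, against 19.4 and 29.8 TPM in tumor #2, the NF-kB subunit Rel, at 4.02 and 3.85 TPM, against 10.1 and 9.86 TPM, and Tnfaip3, at 0.0770 and 0.103 TPM, against 3.93 and 3.32 TPM. Of all tested genes 11.8% were past this limit with tumor #2 higher. Tnfaip3 passed the filter on low values through tumor #2 only, so that its difference is in part fixed by the filter.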

How the data were processed

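Sorted B220+ IgM+ Tom+ and Tom- splenocytes of 2 mice were sequenced by the authors as 60-base single reads, trimmed with Cutadapt and quantified with Salmon (version 1.9 in the submitters' processing notes) on the GRCm38 transcriptome. The deposited table holds TPM per gene. How transcripts were summed to genes is not given in the sources used here. TPM keeps no read counts, so depth is unknown and the study's edgeR test was not run.

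Symbols and positions came from GENCODE M21 (GRCm38), which holds 34582 of the 34866 identifiers. Values were analyzed as log2(TPM + 1) for genes with at least 1 TPM in at least 2 libraries. Tom+ and Tom- cells were compared with limma 3.58.1 (R 4.3.3), two-sided, with the tumor as a block because both libraries of a tumor came from the same mouse, a variance trend (1 residual and 2.21 prior degrees of freedom) and Benjamini-Hochberg adjustment over all 11339 genes. With 1 mouse per tumor, differences between tumors were described without a test. All 10 members were named. From each pathway list, genes were named by an unadjusted p-value below 0.05 or as the 2 largest absolute mean differences, and all receptors with their highest TPM. Irf1, Ifngr1, Cmtm6, Myc, Nfkbia, Rel, Tnfaip3 and the cell type markers were named after their values were seen. Members and lists were chosen with earlier results of these data known. Motifs were searched in RefSeq promoters of GRCm38.p6. Values of some genes are not reported here. The fit was run on simulated data with a narrow spread and with the observed spread. Recovery of the changes put in was required with the narrow spread only. It does not show how many changes the fit would find in these data. Python 3.11.15, pandas 2.3.3 and matplotlib 3.10.9 were used for tables and plots.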

Additional observations from a re-analysis of the deposited data

Results flagged for a closer look

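The direction of the Tom+ and Tom- difference was opposite in the 2 tumors for 5 of the 10 members, and with 1 pair of libraries per tumor the difference between the tumors was not tested. Taking the log2 difference of tumor #2 less that of tumor #1, the values were 0.71 for Cd86 (-0.50 in tumor #1 and 0.20 in tumor #2), 0.60 for Pvr (-0.034 and 0.57), -0.67 for Tnfrsf14 (0.32 and -0.35), -0.21 for Btla (0.090 and -0.12) and -0.19 for Pdcd1lg2 (0.072 and -0.12). Pdcd1lg2 was below 0.2 TPM in each library.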

How the results depend on the processing

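By limma, 0 genes passed an adjusted p-value of 0.05 as reported (530 at an unadjusted p-value below 0.05) and 0 in each alternative run. Without the tumor as a block (no replicate block), 140 genes had an unadjusted p-value below 0.05. Adjusted p-values of members ranged from 0.925 up over the alternatives. The median log2 difference of the tested members, -0.017 as reported, was 0.012 with a pseudocount of 0.1, -0.13 at a mean of at least 5 TPM, 0.013 without immunoglobulin genes, 0.0023 with protein-coding genes only, and between 0.022 and 0.040 with a tumor left out. The runs on filter, block, variance trend and prior leave the difference of a member unchanged, so no direction could turn in them. Of 97 values of single members under alternatives other than leaving out a tumor, with those runs counted, 91 kept their direction. The other 6 were Btla, at 0.011 with quantile normalization and 0.014 without immunoglobulin genes, and Tnfrsf14, at 0.040 and 0.0065 with pseudocounts of 0.1 and 0.5, 0.012 without immunoglobulin genes and 0.011 with protein-coding genes only. With a tumor left out the difference ran from -0.50 to 0.20 for Cd86, -0.034 to 0.57 for Pvr, -0.12 to 0.090 for Btla and -0.35 to 0.32 for Tnfrsf14. The cause was not tested. Cd200 was 3.20 with a pseudocount of 0.1. The number of reads behind low TPM values is unknown, which limits Cd200, Pdcd1lg2, and Cd80 and Cd274 in tumor #1.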

Other observations

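Several members share a chromosome, and few of them are close neighbors. Cd86, Cd80, Btla, Cd200 and Cd47, 5 of the 10, lie within 13311 kb of chromosome 16, and Btla and Cd200 are 124 kb apart. Over the 351 tested genes of chromosome 16, the median log2 difference between tumor #2 and tumor #1 was 0.16 in Tom- and 0.15 in Tom+ cells, against 0.23 and 0.19 over all tested genes, while Cd86, Cd80 and Btla were each past 1.5, Cd200 was at 0.38 and 2.77, and Cd47 was at 0.40 and 0.27. The 385 tested genes of chromosome 19, which holds Cd274 and Pdcd1lg2, had medians of 0.22 and 0.13. Around Cd274, Plgrkt, which encodes a plasminogen receptor, was also higher in tumor #2, at 9.24 (Tom-) and 6.42 TPM (Tom+) in tumor #1, against 40.7 (Tom-) and 37.3 TPM (Tom+) in tumor #2. The other neighbors differed less: Jak2 was at 2.73 (Tom-) and 2.54 TPM (Tom+) in tumor #1, against 2.73 (Tom-) and 3.57 TPM (Tom+) in tumor #2, Insl6 at 1.64 (Tom-) and 2.07 TPM (Tom+) in tumor #1, against 1.9 (Tom-) and 2.16 TPM (Tom+) in tumor #2, Ric1 at 6.14 (Tom-) and 6.29 TPM (Tom+) in tumor #1, against 10.1 (Tom-) and 11.0 TPM (Tom+) in tumor #2, and Ermp1 at 7.30 (Tom-) and 6.74 TPM (Tom+) in tumor #1, against 12.6 (Tom-) and 9.98 TPM (Tom+) in tumor #2. Rln1 was listed at 0.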
